A study of Drosophila melanogaster with 28 samples.

Results

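The transcripts described here gained both messenger RNA and ribosome footprints in the testis of flies that lack Mettl1. They were chosen from the data. A transcript was taken when its knockout footprints averaged at least 10 CPM, counts scaled to a library total of 1000000, in both testis sets, and when its change reached 0.8 in the footprints of set 1, the footprints of set 2 and the RNA-seq of set 1. The change was log2 of mean knockout CPM plus 1 over mean WT CPM plus 1. Of 34703 listed FlyBase transcripts, 30340 had a number in the second deposited column, and 18851 remained after neighbours with near-equal summed counts were dropped. Of these, 9728 reached the footprint level in both sets, and 139 of the 9728 (1.43%) met the whole rule. The 139 stand for 220 listed transcripts, because each kept transcript also represents the neighbours dropped after it.

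The 28 libraries were ribosome profiling and RNA-seq of Drosophila melanogaster testis and body, in 14 groups of 2. Testis set 1 and testis set 2 each held, per assay, 2 libraries of WT males (y1 w1118) and 2 of Mettl1-KO males, of the line Mettl1KO1 per the labels. Body held 2 libraries per assay of WT and of the knockouts titled KO1 and KO2, which share the WT libraries. Per the labels' protocol, males were adults aged 2 to 3 days, testes were dissected in cycloheximide at 100 µg/ml, and 600 pairs were pooled per sample. The protocol speaks of testes only, and the labels do not say whether the body samples held testes. The testis titles carry a digit behind WT or KO, which was taken as the replicate, although it could stand for a knockout line. The deposited names of the set 2 knockout footprint data carry KO2, so the line used for set 2 is uncertain. The labels do not say that replicates came from separate flies, so p-values measure only the spread between these samples.

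Mettl1 is the catalytic subunit of the enzyme that places N7-methylguanosine (m7G) in the variable loop of a subset of tRNAs, together with a partner protein that is called Wuho in the fly. The modification is known to stabilise some of these tRNAs. In ribosome profiling, nuclease removes mRNA that is not covered by a ribosome and the remaining footprints are sequenced, while RNA-seq of the same tissue gives the transcript level. A testis holds germ cells from stem cells to elongating spermatids beside somatic cyst cells, and much of its transcription takes place in spermatocytes. In such bulk samples, fewer cells of a type and less RNA per cell cannot be told apart.

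Depth differed between assays. Summed counts per library over the 18851 transcripts were 410019 to 3386070 for set 1 footprints, 6732034 to 13217075 for set 2 footprints and 11486631 to 17707128 for set 1 RNA-seq. Body footprints had 2033209 to 9936190 counts. RNA-seq of set 2 and of body was shallow, with 149745 to 209202 and 49608 to 95749 counts. The files do not pair transcript identifiers with gene names, so members are given by identifier, and neither the targeted gene nor tissue markers were analysed here.

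Most members gained modestly in the 3 measurements that chose them, and a few gained from near absence. Their footprint change ran from 0.81 to 3.83 in set 1 with a median of 1.44, and from 0.81 to 4.13 in set 2 with a median of 1.26. The RNA-seq change of set 1 ran from 0.81 to 3.89 with a median of 1.12. Over all 9728 transcripts at the footprint level the medians were 0.23, 0.14 and -0.17, and with TMM scaling they were 0.03, 0.00 and -0.01. The smallest change of a member under TMM scaling was 0.61 in set 1 footprints, 0.68 in set 2 footprints and 0.98 in RNA-seq. Since the rule used these values, they are a description and were not tested, and this holds for the testis values of single members as well.

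Each measurement alone was far less selective than the 3 together. A change of 0.8 was reached by 1241 of the 9728 transcripts (12.8%) in set 1 footprints, by 670 (6.89%) in set 2 footprints and by 354 (3.64%) in RNA-seq, and 344 reached it in both footprint sets. Both knockout libraries lay above both WT libraries for 136 of the 139 members in set 1 footprints, against 42.2% of all transcripts at the footprint level, and for all 139 in set 2 footprints and in set 1 RNA-seq, against 47.2% and 27.7%. In set 1, both lay below for 0 members, against 54.5% of all transcripts in RNA-seq and 18.7% in footprints. The rule chose the members by their gain in these same libraries, so this separation was largely fixed by it and gives no support. The smallest of the 3 changes was at least 2 for 8 members, and below 1 for 66. Just inside the threshold lay FBtr0080543, FBtr0290240 and FBtr0074024, each with a smallest change of 0.81. Just outside lay FBtr0084490 and FBtr0306655 at 0.80 and FBtr0308075 at 0.79.

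**Figure D1:**
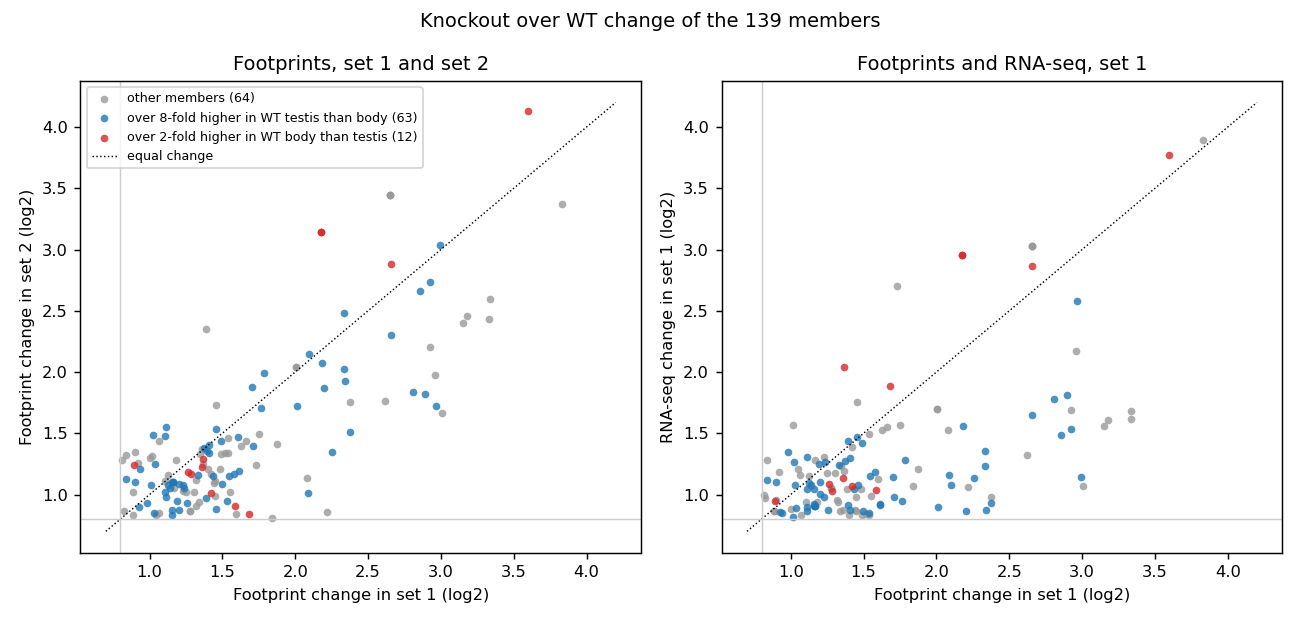
Knockout over WT change (log2) of the 139 members, with set 1 footprints on the x axis and set 2 footprints (left) or set 1 RNA-seq (right) on the y axis; points are coloured by the ratio of WT testis to WT body footprints. Most members lie between 0.8 and 2 on each axis, and of the 12 members higher in WT body (red) 4 lie above a change of 2 in all 3 measurements.

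The members' summed share of a library rose in the testis libraries that chose them. In set 1 footprints the 139 members took 0.712% and 0.624% of the counts of the WT libraries and 1.78% and 2.18% of those of the knockout libraries. In set 2 footprints the shares were 0.610% and 0.591% in WT and 1.65% and 1.63% in knockout, and in set 1 RNA-seq 1.24% and 1.23% in WT and 2.92% and 2.81% in knockout. The groups did not overlap in any of these. In set 2 RNA-seq, which the rule did not use, the shares were 0.768% and 0.691% in WT and 0.844% and 0.856% in knockout, a much smaller gap that still left the groups apart. Body footprints held 0.257% and 0.283% in WT, 0.337% and 0.302% in KO1, and 0.304% and 0.302% in KO2. Body RNA-seq ran the other way, with 0.792% and 0.756% in WT, 0.587% and 0.579% in KO1, and 0.651% and 0.622% in KO2. Those shares rest on 343 to 554 member counts per library. Per library 55 to 77 of the 139 members had 0 counts, and only 5 to 10 members had 10 counts or more.

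**Figure D2:**
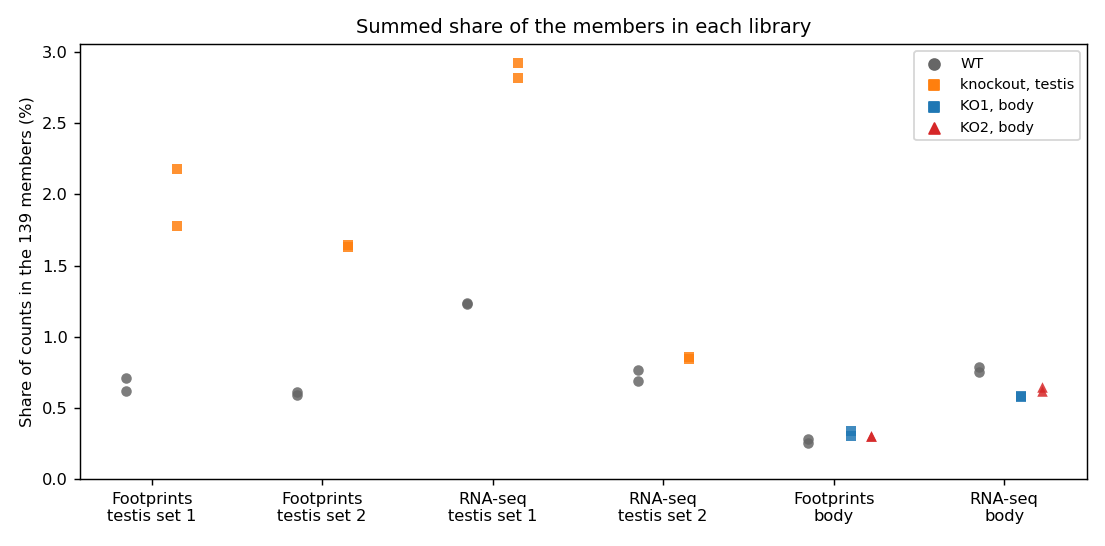
Share of each library's counts (%) held by the 139 members together; each point is 1 library, 2 per group. Knockout libraries lie above WT in all testis panels and in body footprints, and below WT in body RNA-seq.

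Several members are not independent measurements. Grouped by identical counts, or by near-identical counts within 50 lines of each other, the 139 members formed 115 count profiles. Of these, 16 held several members, 40 in all, and the largest held 4. There were 11 members whose counts equalled those of another member in every library. How reads shared by overlapping or near-identical transcripts were counted is not given in the sources used here, so the counts of such members are uncertain.

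Some of the largest gains belonged to transcripts that were near absent from WT testis in the 3 measurements of the rule. FBtr0072403 had 1.77 and 0 CPM in the WT footprints of set 1 and 19.5 and 24.2 CPM in the knockout, 1.74 and 0.594 against 43.1 and 31.0 CPM in set 2, and 1.04 and 0.916 against 23.9 and 28.3 CPM in set 1 RNA-seq. All 6 knockout libraries lay far above the 6 WT libraries, and the changes were 3.60, 4.13 and 3.77. The set 1 footprint values rest on 6 and 0 counts in WT and 8 and 27 in knockout, and those of set 2 on 23 and 4 in WT and 397 and 235 in knockout. In set 2 RNA-seq, which the rule did not use, it had 1215 and 1069.9 CPM in WT and 483 and 648 CPM in knockout, so near absence does not hold there. In WT body the same transcript was abundant, at 95.6 and 126 CPM of footprints, and the body knockouts did not separate from it, at 109.6 and 109 CPM in KO1 and 79.8 and 143 CPM in KO2.

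FBtr0339259 was near 0 in WT testis and in body footprints. It had 0 and 3.73 CPM in the WT and 39.0 and 40.3 CPM in the knockout footprints of set 1, 0.151 and 0.149 against 14.6 and 7.25 CPM in set 2, and 0.0871 and 0 against 15.5 and 13.4 CPM in RNA-seq. WT and knockout did not overlap, and the WT values of set 2 rest on 2 and 1 counts. Its body footprints were 0 and 0.101 CPM in WT, 1.49 and 1.14 CPM in KO1 and 1.26 and 0.492 CPM in KO2, so every knockout library there also lay above both WT libraries at 5 and 5 counts in KO1 and 9 and 1 in KO2.

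FBtr0334646 and the identical pair FBtr0334645 and FBtr0076811 stood on neighbouring lines and were transcripts of the body. FBtr0076811 had 7.09 and 4.97 CPM in the WT and 29.3 and 32.2 CPM in the knockout footprints of set 1, 4.24 and 3.42 against 42.4 and 41.0 CPM in set 2, and 3.48 and 2.52 against 30.4 and 29.7 CPM in RNA-seq. Its body footprints were 534 and 563 CPM in WT, 667 and 587 CPM in KO1 and 565 and 533 CPM in KO2, where the groups overlap for KO2. The knockout testis thus stayed well below the body level, while it lay far above the WT testis. FBtr0334646 followed the same course, with 1.97 and 1.19 CPM in WT and 18.1 and 17.9 CPM in knockout footprints of set 2 against 211 and 231 CPM in WT body.

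The identical transcripts FBtr0083632, FBtr0344291 and FBtr0290211 were present in WT testis and rose by 2.65, 3.44 and 3.03 on the log2 scale in the 3 measurements. Set 2 footprints were 13.3 and 11.1 CPM in WT and 149.6 and 136 CPM in knockout, with no overlap. FBtr0083774 rose from 7.72 and 10.2 CPM to 39.9 and 36.8 CPM there, and FBtr0304711 from 7.04 and 8.17 CPM to 29.8 and 29.1 CPM. For the last of these, changes of 2.89, 1.82 and 1.82 were all on counts of at least 4 per library, the lowest being in a WT library of set 1 footprints.

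**Figure D3:**
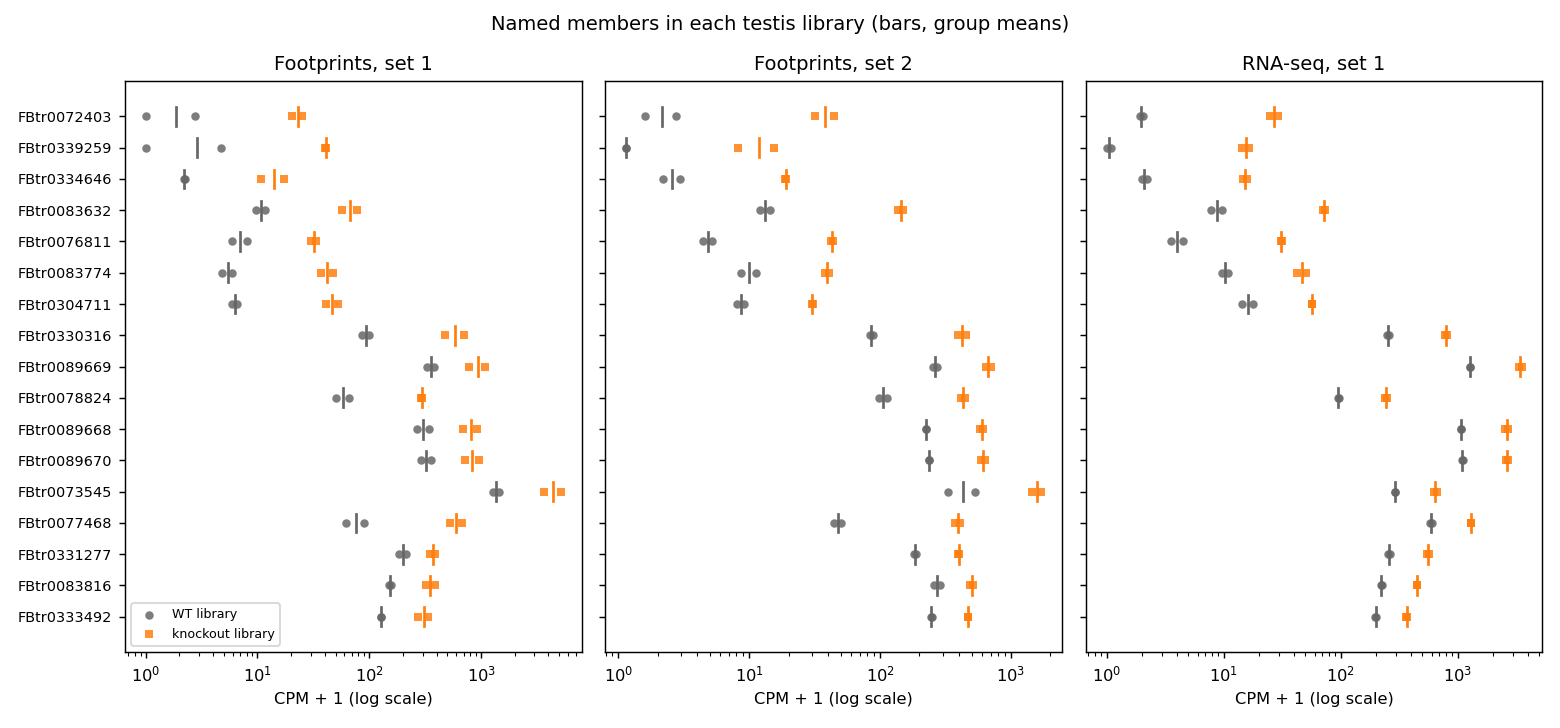
CPM plus 1 (log axis) of the members with the largest changes (top 7 rows, identical members once) and of those with the highest knockout footprint CPM in set 2 (lower 10 rows); points are libraries, 2 per group, and vertical bars are group means. Every knockout point lies to the right of every WT point in its row and panel.

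Values of a wider set of body transcripts, some members among them, are given beside those of the body-enriched members. There were 235 transcripts with at least 50 CPM in WT body footprints and at least 32 times the level of WT testis set 1, and 5 of them were members. These 5 reached 0.8 by the rule and are included in the counts that follow. The median change of the 235 was -0.10 in set 2 footprints, where 16 (6.81%) reached 0.8. It was -0.32 in set 1 RNA-seq, where 8 (3.40%) did. These transcripts were chosen for a low WT testis level, where the added 1 CPM damps a change, and the part of body tissue in the members' values was not tested.

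Besides the 4 named above, 8 members were over 2-fold higher in WT body than in WT testis set 2. FBtr0112363 was the most body-enriched of these, at 290 CPM in WT body footprints and with changes of 1.37, 1.29 and 2.04 in set 1 footprints, set 2 footprints and RNA-seq. The remaining 7 were FBtr0310058, FBtr0310059 and FBtr0310346, which share 1 profile, and FBtr0333577, FBtr0073228, FBtr0075420 and FBtr0300179.

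Most members were testis transcripts. Their WT footprint level was higher in testis set 2 than in body by a median of 2.75 on the log2 scale, against 0.91 over all transcripts at the footprint level. It was over 8-fold higher for 63 members (45.3%), against 22.9% of all, and over 2-fold lower for 12 (8.63%), against 14.6%. In WT body 46 members (33.1%) had under 1 CPM, against 5.39% of all. Their WT levels in testis were lower than usual, with medians of 20.1 CPM in set 1 footprints and 22.2 CPM in set 2 against 36.2 and 39.0 CPM over all, and close to usual in RNA-seq, at 37.8 against 39.5 CPM. The second deposited column, whose unit is not stated and which was read as a length, had a median of 369 in the members and 454 over all. The WT testis levels were part of the rule, so these figures describe the members and were not tested.

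Whether the members' footprints gained more or less than their RNA depends on the scaling. The rule asked for a gain in both, and a gain of that size was rarer in RNA than in footprints, so the rule itself moves the difference between them and the values below are a description. The footprint change minus the RNA-seq change of set 1 was above 0 for 105 of the 139 members, with a median of 0.24 and a range from -0.97 to 1.94. Over all transcripts at the footprint level the median was 0.46 and 79.9% were above 0. With TMM scaling, 61 members were above 0 and their median was -0.12, against 0.09 and 57.6% over all. With set 2 footprints against set 1 RNA-seq, 91 members were above 0 and the median was 0.11, against 0.29 over all, and with TMM scaling 45 were above 0 and the medians were -0.21 and -0.01. On file totals the footprint change exceeded the RNA change by more than 1 for 22 members in set 1 and in both sets for 7, and with TMM scaling in both sets for 1, FBtr0077468.

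Among the 7, FBtr0077468 had the widest gap in both sets, at 1.85 and 1.89, or 1.47 and 1.58 with TMM scaling. Its RNA-seq rose from 576 and 599 CPM to 1299 and 1293 CPM, a change of 1.14, while its footprints rose from 88.3 and 60.8 to 522 and 678 CPM in set 1 and from 49.5 and 43.8 to 372 and 407 CPM in set 2, changes of 2.99 and 3.03. All 3 pairs of groups were well apart. The neighbours FBtr0303208 and FBtr0077757 rose by 2.93 and 2.86 in set 1 footprints, by 2.73 and 2.66 in set 2 footprints and by 1.54 and 1.49 in RNA-seq. FBtr0303208 went from 26.5 and 22.9 CPM to 169 and 171 CPM in set 2 footprints and from 43.4 and 40.7 to 125 and 122 CPM in RNA-seq. The other 4 were FBtr0073672, FBtr0303295, FBtr0088706 and FBtr0339335, with RNA-seq changes between 0.86 and 1.23 and set 2 footprint changes between 1.87 and 2.49.

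In FBtr0332999 and FBtr0112363 the RNA rose more than the footprints in both sets by over 0.4, and with TMM scaling this held for 11 members. RNA-seq of FBtr0332999 rose from 2.61 and 2.37 CPM to 21.2 and 22.2 CPM, and its footprint changes of 1.73 and 1.24 in set 1 and set 2 differed from the RNA change by -0.97 and -1.46. Its footprints were 4.01 and 3.42 CPM in WT and 11.0 and 9.36 CPM in knockout of set 2, with no overlap, and it had the fewest knockout footprints per length of all members. On file totals RNA-seq had the largest of the 3 changes in 17 members, and both footprint changes exceeded it in 74.

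Among the members with the highest knockout footprint CPM in set 2, FBtr0073545 stood first. It had 1436 and 1284 CPM in WT and 3690.1 and 5159.9 CPM in knockout footprints of set 1, 526 and 328 against 1439 and 1701 CPM in set 2, and 290.2 and 293 against 628 and 664 CPM in RNA-seq. WT and knockout were apart in each, and the set 1 footprint level was above that of set 2 in both genotypes. FBtr0089669, FBtr0089668 and FBtr0089670, on consecutive lines and with similar counts, had the highest RNA-seq CPM, a ranking that is not per length. FBtr0089669 rose from 1263 and 1277 CPM to 3529 and 3351 CPM in RNA-seq and from 252 and 270.1 to 697 and 645 CPM in set 2 footprints, changes of 1.44 and 1.36.

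FBtr0330316 rose from 86.7 and 82.7 CPM to 394 and 451 CPM in set 2 footprints and from 257 and 247 to 816 and 773 CPM in RNA-seq. FBtr0078824 rose from 96.8 and 112 CPM to 412 and 444 CPM and from 93.3 and 96.5 to 247 and 240.5 CPM in the same measurements. Divided by the second deposited column, its knockout footprints of set 2 were the highest of all members, at 5560 CPM per 1000 of that column against a median of 164 over the members. The 3 remaining transcripts of this ranking changed by less in set 2 footprints than those before. FBtr0083816 had 257 and 286 CPM in WT and 510.4 and 489 CPM in knockout footprints of set 2, a change of 0.88. FBtr0333492 changed by 0.93 from 242 and 246 CPM, and FBtr0331277 by 1.10 from 181 and 188 CPM.

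Body footprints, which the rule did not use, asked whether the members also rose outside the dissected testis. Both KO1 libraries lay above both WT libraries for 68 of the 139 members, against 14.6% of all transcripts at the footprint level, and both lay below for 5, against 26.1%. For KO2, which shares the WT libraries, the counts were 62, against 14.2%, and 5, against 26.2%. All 4 knockout libraries lay above both WT libraries for 45 members, against 7.63% of all, and below for 1, against 16.6%. By count profile, 37 of 115 lay above with all 4.

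With a library left out fewer values have to be apart, and the counts of members and the shares of all transcripts grew together. For KO1, 74 to 102 members then lay above, against 17.7% to 43.0% of all, with 102 without WT replicate 2. The 5 members below became 27 without WT replicate 1, 21 without KO1 replicate 1 and 13 without KO1 replicate 2. The shares of all transcripts below were then 56.5%, 44.1% and 35.8%. Without WT replicate 2 the members below stayed at 5, against 29.9%. For KO2, 70 to 93 lay above, against 17.5% to 41.8%, with 93 without KO2 replicate 1. The 5 below became 25 without WT replicate 1, 27 without KO2 replicate 1 and 22 without KO2 replicate 2. The shares of all transcripts below were then 55.4%, 41.8% and 39.0%. Without WT replicate 2 the members below numbered 7, against 30.5%. For both lines together, 48 to 72 lay above, against 9.19% to 30.9%, with 72 without WT replicate 2, and the 1 below became at most 10, without WT replicate 1, against 42.4%. Many of these members had few body footprints, and the labels do not say whether body samples held testes, so the part of testis tissue in these values was not tested.

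The low-count filter passed 92 of the 139 members in body footprints. Members with few WT counts, such as FBtr0303208, could pass it only through the knockout libraries where they are high, so the counts called over the 92 give no support beyond the single transcripts. In the quasi-likelihood test of edgeR, adjusted by Benjamini-Hochberg, 12 members were called higher in KO1 at an adjusted p under 0.05, against 1.02% of the 13840 transcripts tested, and 1 lower, against 2.13%. In KO2, 11 were called higher, against 1.71%, and 0 lower, against 2.86%, with 30 members at an unadjusted p under 0.05 in either direction and 0 called lower by DESeq2. In the mean of both lines, 13 were called higher, against 1.99%, and 1 lower, against 3.91%. Without WT replicate 2 fewer members were called higher in KO1, in KO2 and in the mean, and fewer of all transcripts were as well. The direct comparison of KO2 with KO1 called 0 of the 92 members by edgeR, against 0.0289% higher and 0.0217% lower over all, and 0 by DESeq2, with 6 members at an unadjusted p under 0.05 by edgeR.

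The smallest edgeR adjusted p in the mean of both lines belonged to FBtr0073949, 1 of 4 neighbouring members that share a single profile. FBtr0073949 had 2.98 and 3.82 CPM of body footprints in WT, 22.6 and 19.2 CPM in KO1 and 22.2 and 17.7 CPM in KO2. All 4 knockout libraries lay well above both WT libraries, and the values of KO1 and KO2 overlapped. The mean change of both lines was 2.61 (SE 0.21), with an edgeR adjusted p of 1.92e-05. FBtr0347266, FBtr0300434 and FBtr0073954 changed by 2.44, 2.32 and 2.29. In testis footprints of set 2, FBtr0073949 went from 1.74 and 3.57 CPM to 21.2 and 21.1 CPM, close to the body values of the same genotypes, and in set 1 RNA-seq from 1.22 and 1.68 to 6.66 and 7.02 CPM.

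Other members that rose in body were testis transcripts at a low level there. FBtr0078824 had 1.35 and 1.41 CPM in WT body, 8.93 and 9.14 CPM in KO1 and 8.11 and 10.3 CPM in KO2, which put every knockout library above WT. Its mean change was 2.74 (SE 0.31), with an edgeR adjusted p of 0.000162. FBtr0330316 had 1.90 and 2.31 CPM in WT, 8.04 and 11.7 CPM in KO1 and 10.5 and 14.8 CPM in KO2, again with no overlap. It changed by 2.38 (SE 0.31). FBtr0078824 and FBtr0330316 could each pass the low-count filter only through the knockout libraries, where they are high. These 2 and the 4 members of the profile above were called under all 11 alternatives of the mean contrast.

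FBtr0303208 had 0.271 and 0.403 CPM in WT, 6.85 and 3.66 CPM in KO1 and 3.92 and 4.92 CPM in KO2. The WT values rest on 1 and 4 counts, and the mean change of 3.66 (SE 0.49) was the largest of the called members. FBtr0077757, its neighbour, changed by 3.06 (SE 0.43) from 0.271 and 0.805 CPM. FBtr0303208 and FBtr0077757 could pass the low-count filter only through the knockout libraries, where they are high. FBtr0077468 had 2.71 and 3.22 CPM in WT, 11.6 and 9.59 CPM in KO1 and 8.11 and 16.2 CPM in KO2, with a mean change of 1.87 (SE 0.31). All of these lay above WT in each knockout library. Without WT replicate 2 their edgeR adjusted p rose to 0.0828, 0.0539 and 0.131.

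FBtr0073545 and FBtr0083816 had more body footprints. FBtr0073545 had 20.9 and 23.4 CPM in WT, 37.5 and 51.2 CPM in KO1 and 50.6 and 62.0 CPM in KO2, and its mean change was 1.20 (SE 0.17). FBtr0083816 had 26.3 and 27.6 CPM in WT, 61.4 and 44.5 CPM in KO1 and 41.8 and 36.4 CPM in KO2, a mean change of 0.80 (SE 0.15). In both, all knockout libraries exceeded both WT libraries. Without WT replicate 2 the edgeR adjusted p was 0.0654 for FBtr0073545 and 0.171 for FBtr0083816, and without WT replicate 1 it was 0.0568 for the latter. FBtr0339767 and FBtr0088706 were also called higher, with changes of 1.64 and 1.88, but under 8 and 4 of the 11 alternatives only, and their edgeR adjusted p reached 0.227 and 0.392 without WT replicate 2.

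FBtr0300179 was the 1 member called lower in body footprints. It had 18.7 and 20.7 CPM in WT body, 9.53 and 6.85 CPM in KO1 and 15.5 and 9.84 CPM in KO2, so that every knockout library lay below both WT libraries. The mean change was -0.87 (SE 0.20), with an edgeR adjusted p of 0.0202, and it was 0.112 without WT replicate 1, 0.170 without WT replicate 2 and 0.0841 without KO1 replicate 2. DESeq2 did not call it. Its testis footprints of set 2 were 7.57 and 8.32 CPM in WT and 15.4 and 14.6 CPM in knockout, and its RNA-seq of set 1 rose from 6.96 and 6.26 to 27.1 and 27.1 CPM.

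**Figure D4:**
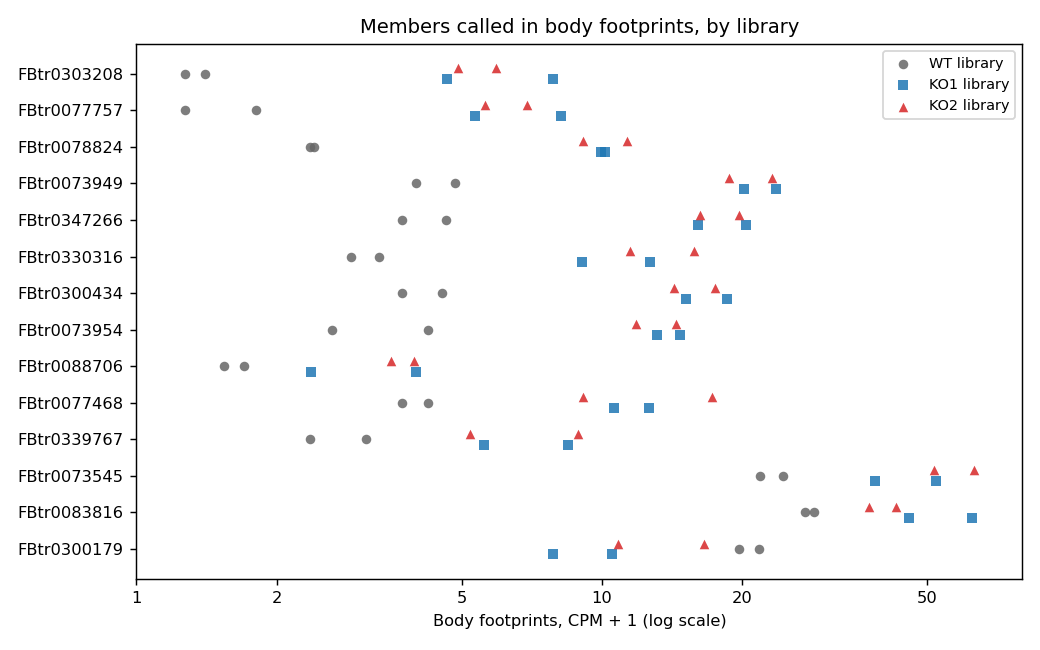
Body footprints (CPM plus 1, log axis) of the 14 members called in the mean of both lines against WT; each point is 1 library, 2 per group. In the 13 upper rows all 4 knockout libraries lie to the right of both WT libraries, and in the bottom row, FBtr0300179, they lie to the left.

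Body RNA-seq reached few members. The low-count filter passed 11 of 139, and the quasi-likelihood test of edgeR, adjusted by Benjamini-Hochberg, called 0 higher in KO1, in KO2 or in their mean, against 3.75%, 2.75% and 4.22% of the 1706 transcripts tested, with 4, 2 and 4 members at an unadjusted p under 0.05 in either direction. DESeq2 also called 0 higher. The call of 1 member as lower in each, against 1.17%, 1.11% and 2.23%, was FBtr0089669. It had 435 and 262 CPM in WT, 43.8 and 73.1 CPM in KO1 and 99.4 and 90.6 CPM in KO2, on 26 and 13, 3 and 7 and 8 and 5 counts. Both WT libraries lay above all knockout libraries, although the transcript rose in testis RNA-seq of set 1. It could pass the low-count filter only through the WT libraries, where it is high. The mean change was -2.17 (SE 0.46), with an edgeR adjusted p of 0.00144, and 0.321 without WT replicate 1. Over all 139 members, all 4 knockout libraries lay above both WT libraries in 7, against 5.24% of all transcripts at the footprint level, and below in 8, against 6.01%. The 7 became 15, 12 and 11 without WT replicate 1, WT replicate 2 and KO2 replicate 2, and the 8 became 30 and 27 without WT replicate 1 and 2 and 13 without KO1 replicate 1 or either KO2 replicate, against at most 12.3% and 19.9% of all.

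RNA-seq of testis set 2 was not used by the rule. It is not shown to be a like measure to that of set 1: it was far shallower and some transcripts stood at very different levels, FBtr0072403 at 1.04 and 0.916 CPM in WT of set 1 and 1215 and 1069.9 CPM in WT of set 2, and whether both were made as the same kind of library was not tested. Both knockout libraries lay above both WT libraries for 50 of the 139 members, against 21.1% of all transcripts at the footprint level, and below for 13, against 15.5%. By count profile, 45 of 115 lay above. With a library left out 61 to 68 members lay above, against 30.1% to 39.0% of all, and the 13 below became 28 without WT replicate 1, 35 without WT replicate 2, 33 without knockout replicate 1 and 25 without knockout replicate 2, over a range of 25.5% to 30.1%. There were 8 members with no count in either WT library. The low-count filter passed 42 members, of which the quasi-likelihood test of edgeR, adjusted by Benjamini-Hochberg, called 8 higher, against 10.1% of the 2969 transcripts tested, and 3 lower, against 10.2%. The members' shares called are taken from those that passed the filter and give no support beyond the single transcripts. Without WT replicate 2 fewer were called in each direction, among the members and over all transcripts. DESeq2 called 2 higher and 2 lower, against 112 and 181 of the 2969 transcripts.

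FBtr0333577 gained most in set 2 RNA-seq, with 5.57 and 0 CPM in WT and 95.6 and 107 CPM in knockout, on 1 and 0 against 20 and 16 counts. It could pass the low-count filter only through the knockout libraries, where it is high. Its change of 4.81 (SE 0.85) had an edgeR adjusted p of 0.00384, and of 0.0674 without knockout replicate 1. In set 1 RNA-seq the same transcript went from 4.18 and 3.97 CPM to 8.70 and 10.6 CPM, a change of 1.07. FBtr0087439, which also could pass that filter only through the knockout libraries, had 22.3 and 37.5 CPM in WT and 105 and 134 CPM in knockout. It changed by 1.99 (SE 0.48). FBtr0084270 had 111 and 68.8 CPM in WT and 258 and 214 CPM in knockout, and changed by 1.40 (SE 0.33). Neither pair of groups overlapped, and the calls held under 6 and 7 of 9 alternatives. The edgeR adjusted p rose to 0.0950 without WT replicate 1 and 0.0541 without knockout replicate 2 for FBtr0087439, and to 0.156 without WT replicate 2 for FBtr0084270.

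The 3 neighbours with the highest RNA-seq CPM rose again. FBtr0089669 had 518 and 369 CPM in WT and 717 and 828 CPM in knockout, a change of 0.81 (SE 0.22), and FBtr0089668 and FBtr0089670 each changed by 0.96 (SE 0.21 and 0.23). The knockout libraries lay above WT in all 3. Without WT replicate 2 their changes were 0.50, 0.70 and 0.63, with edgeR adjusted p of 0.467, 0.248 and 0.321. FBtr0074103, which could pass the low-count filter only through the knockout libraries, had 55.7 and 31.3 CPM in WT and 134 and 134 CPM in knockout. It changed by 1.61 (SE 0.43), and FBtr0077468, with 173 and 144 and 253 and 341 CPM, by 0.90 (SE 0.27). Without WT replicate 2 the edgeR adjusted p of these was 0.246 and 0.344. That of FBtr0074103 was 0.0599 without knockout replicate 1, and that of FBtr0077468 was 0.0950 without WT replicate 1 and 0.213 without knockout replicate 2. Of the 9 alternatives, FBtr0074103 was called under 5, FBtr0077468 under 4, FBtr0089669 under 6, FBtr0089670 under 7 and FBtr0089668 under 8.

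The 3 members called lower had gone the other way in set 1 RNA-seq. FBtr0332999 had 775 and 801 CPM in WT and 277 and 327 CPM in knockout of set 2, a change of -1.37 (SE 0.20) with an edgeR adjusted p of 0.00149. FBtr0072403 had 1215 and 1069.9 CPM in WT and 483 and 648 CPM in knockout, a change of -1.01 (SE 0.20) with an edgeR adjusted p of 0.00617. Both were called lower under all 9 alternatives, with no overlap of the groups. The levels themselves differed between the sets: WT RNA-seq of set 1 held 2.61 and 2.37 CPM of FBtr0332999 and 1.04 and 0.916 CPM of FBtr0072403, while footprints of FBtr0072403 in set 2 were 1.74 and 0.594 CPM in WT. FBtr0082793 had 72.5 and 68.8 CPM in WT and 14.3 and 0 CPM in knockout, on 3 and 0 knockout counts, and changed by -2.97 (SE 0.87). It could pass the low-count filter only through the WT libraries, where it is high. Its edgeR adjusted p was 0.407 without WT replicate 2 and 0.0996 without knockout replicate 2.

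**Figure D5:**
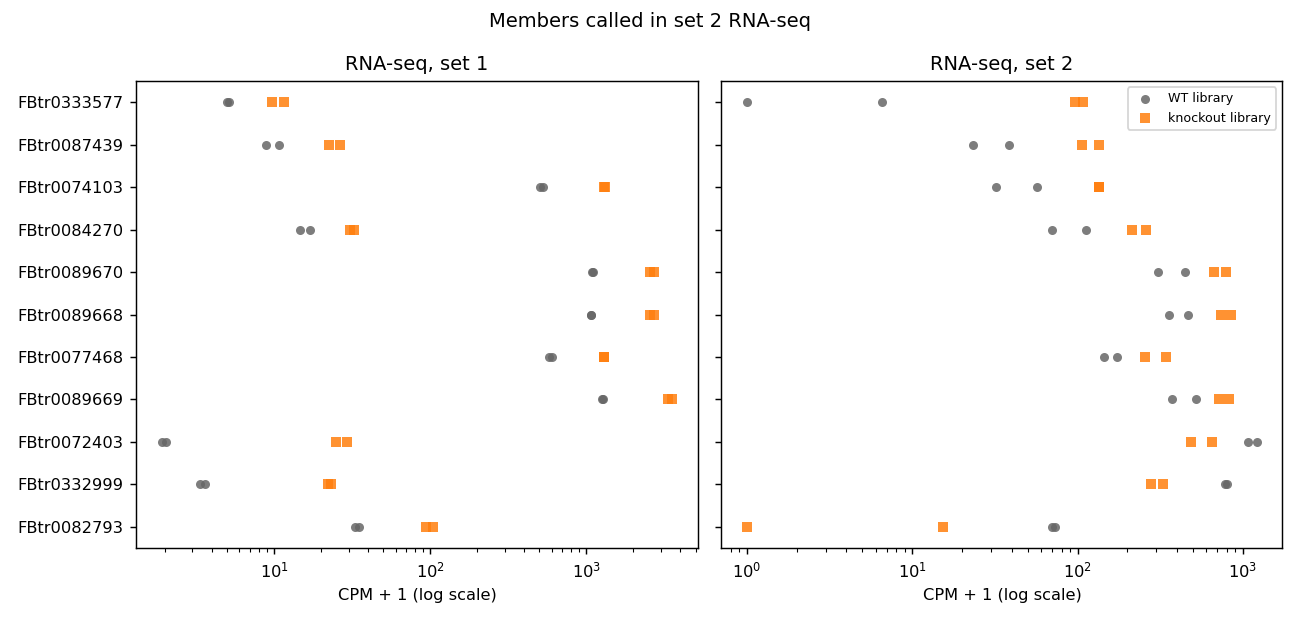
RNA-seq levels (CPM plus 1, log axis) of the 11 members called in set 2, in set 1 (left) and set 2 (right); each point is 1 library, 2 per group. In set 2 the knockout libraries lie to the right of WT in the upper 8 rows and to the left in the lower 3, whereas in set 1 they lie to the right in every row.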

How the data were processed

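The authors deposited whole-number counts per FlyBase transcript for each library. The submitters' processing notes name CASAVA 1.8, STAR 2.7.0a and the dm6 genome, with no role given. The counting tool, its use of strand and the annotation are not given in the sources used here. Per the labels' protocols, footprint libraries used linker ligation and in vitro transcription, and those of RNA-seq a SEQuoia Express kit, in 1 text given for every sample. The other deposited column holds 1 number per transcript, is the same in all 28 files and has no stated unit. In that column 4363 transcripts have no number, and they had 0 counts.

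CPM were computed from the deposited counts over the 18851 transcripts kept, after dropping each transcript whose counts summed over all libraries lay within 5% of the last kept one. The test was the quasi-likelihood F-test of edgeR 4.0.16 (R 4.3.3) on counts that passed filterByExpr at a minimum count of 10, scaled by TMM and adjusted by Benjamini-Hochberg over all transcripts tested. The 3 body groups shared 1 fit per assay and set 2 RNA-seq had its own, giving 8 comparisons. Each SE was computed back from that test, as the absolute log2 change divided by the square root of its F value. The scripts were tested on simulated data.

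The members, lists and tests were chosen with earlier results of these data known. Named members had the largest smallest-of-3 change, the highest knockout footprint CPM in set 2, or the smallest adjusted p in body footprints or set 2 RNA-seq, 10 each, or lay nearest the threshold. Others named by a gap between footprints and RNA or by body enrichment, and FBtr0339767 and FBtr0088706 among the body calls, FBtr0089669 in body RNA-seq and FBtr0077468 in set 2 RNA-seq, were chosen after their values were seen. Gene lists, cell type markers and promoter motifs were not used here, since identifiers could not be matched to gene names. Alternatives were DESeq2 1.42.0 (size factors or Wald test), no low-count filter, a replicate block, no dropping of neighbours, each body line alone and leaving out each library, and for the rule other pseudocounts, thresholds and scaling.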

Additional observations from a re-analysis of the deposited data

Results flagged for a closer look

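Of the named members, 9 changed in set 2 RNA-seq or in body in the direction opposite to their rise in testis, with every knockout library beyond every WT library on each side. Over all 139 members, every knockout library lay below both WT libraries for 13 in set 2 RNA-seq, against 15.5% of all transcripts at the footprint level. In body RNA-seq this held for 8, against 6.01%, and in body footprints for 1, against 16.6%. The differences between the sets or tissues themselves were not tested. All changes are log2 of mean knockout over mean WT CPM with 1 CPM added to each, and no explanation was tested.

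In set 2 RNA-seq, FBtr0072403 changed by -1.01, from 1215 and 1069.9 CPM in WT to 483 and 648 CPM in knockout. FBtr0332999 changed by -1.38 there, FBtr0082793 by -3.13 and FBtr0083774 by -0.43. The last had 446 and 357 CPM in WT and 287 and 307 CPM in knockout and was not called by edgeR.

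In body RNA-seq the mean of both lines changed by -1.14 for FBtr0072403, which had 151 and 222 CPM in WT, 102 and 62.7 CPM in KO1 and 24.9 and 145 CPM in KO2, on at most 11 counts per library. The neighbours FBtr0089669, FBtr0089668 and FBtr0089670 changed by -2.17, -1.17 and -1.71. FBtr0331277 changed by -2.95, on 2 and 1 counts in the WT libraries, 0 and 1 in KO1 and 0 and 0 in KO2.

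In body footprints, FBtr0300179 changed by -0.86, from 18.7 and 20.7 CPM in WT.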

How the results depend on the processing

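With pseudocounts of 0.5 and 5, TMM scaling, no dropping of neighbours or a minimum of 5 CPM, the rule gave 144, 104, 133, 165 and 158 members, and 73 with a change of at least 1. Leaving out single libraries gave 121 to 151. TMM scaling kept 105 of the 139, and no dropping of neighbours kept 107. TMM scaling of the members' footprint minus RNA change was chosen after seeing the data. It turned their median from 0.24 to -0.12 in set 1 and from 0.11 to -0.21 in set 2.

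Members called lower in body footprints numbered 1 in KO1 and 1 in the mean of both lines. DESeq2 called 0 in each, against 168 and 283 of the 13840 transcripts tested. In KO1, 2 were called lower without the low-count filter, with the replicate block, and with WT and that line alone. Over all transcripts these settings called 551 of 18437, 314 of 13840 and 623 of 13552 lower. Without the filter, 1 was called higher in KO2 against KO1, against 99 of 18437 over all transcripts. In body RNA-seq the member called lower in KO1 was 0 by DESeq2 and 2 with the line alone, against 6 of 1706 and 31 of 1485 transcripts. In KO2 it was 0 by DESeq2, without the filter and with the line alone, against 4 of 1706, 13 of 16040 and 5 of 1310 transcripts. With the replicate block it was 2, against 23 of 1706. In the mean it was 2 with all transcripts kept, against 73 of 2848. In set 2 RNA-seq, 8 called higher became 2 by DESeq2, against 112 of the 2969 transcripts tested, and 5 without the filter, against 255 of 16019. The 3 called lower became 6 without the filter, against 377 of 16019.

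Leaving out single libraries, members called higher ranged from 4 to 15 in KO1, 5 to 13 in KO2, 6 to 18 in their mean and 0 to 1 in KO2 against KO1 for body footprints, and from 2 to 7 in set 2 RNA-seq. Those called lower ranged from 0 to 2 in KO1, 0 to 1 in KO2 and 0 to 2 in the mean for body footprints, from 0 to 2, 0 to 1 and 0 to 1 for body RNA-seq, and from 2 to 3 in set 2 RNA-seq. A group left with 1 library was assumed to vary like the others. The numbers called over all transcripts shifted in these settings as well, and the cause of these shifts was not tested. The counts of members whose groups did not overlap were recomputed with TMM scaling and without single libraries, both chosen after seeing the data. In body footprints 48 members lay above WT in all 4 knockout libraries with TMM scaling, against 9.41% of all transcripts at the footprint level.

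Same-numbered samples share only a number: their deviations correlated at -0.0934 to 0.131 in body footprints, -0.0591 to 0.111 in body RNA-seq and -0.0346 in set 2 RNA-seq. With the replicate block, 11, 11 and 12 members were called higher in KO1, KO2 and their mean for body footprints, and 8 in set 2 RNA-seq. Over all transcripts, 151, 216 and 261 of 13840 and 372 of 2969 were. RNA-seq of body and set 2 was too shallow to test most members.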
